A study of Mus musculus with 12 samples.

Results

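The genes described here encode chains of the receptors for IL-6, IL-27, LIF, OSM and IL-11 and the JAK kinases of the cytokine receptors. They are 10 of the 40840 genes listed in the count files, chosen by name: the 6 receptor genes Il6ra, Il6st, Il27ra, Lifr, Osmr and Il11ra1, and the 4 kinase genes Jak1, Jak2, Jak3 and Tyk2. The RNA came from OTII cells, naive CD4+ donor cells whose TCR transgenes recognize OVA, which were transferred into WT or Il6-/- recipients and sorted from the mediastinal lymph nodes after i.n. sensitization with HDM LPS (house dust mite extract with LPS) + OVA. The 4 groups were WT Day 3, Il6-/- Day 3, WT Day 5 and Il6-/- Day 5, with 3 libraries each and 12 in all. The days are those of the labels, and the deposited design text says that the manuscript begins its count at day 0 and not at day 1. The Il6 deletion of the B6.129S2-IL-6tm1Kopf/J strain was in every cell of the recipients and not in the transferred cells, so the members were measured in cells with an intact Il6 gene in all 4 groups. The labels name the tissue as blood and leave out LPS, and for both the study's methods were followed. Nothing in the sources used here says whether the libraries of a group came from separate mice, and the p-values measure the spread between these libraries only.

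IL-6 binds the chain encoded by Il6ra, and the pair then recruits gp130, encoded by Il6st, the signal-transducing chain shared with the receptors for IL-11, IL-27, LIF and OSM. The gp130 chain has no enzyme activity of its own and carries the JAK tyrosine kinases JAK1, JAK2 and TYK2, which phosphorylate STAT3 and other STATs. JAK3 instead binds the common γ chain of the receptors for IL-2, IL-4, IL-7 and IL-21. Naive CD4+ T cells carry IL-6R and gp130, and T-cell activation is known to lower surface IL-6R.

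Total gene counts ran from 16125947 to 26111657 per library. Levels are given as CPM, read counts divided by library totals that were adjusted with TMM factors, and groups were compared with edgeR's quasi-likelihood F test over all 13570 genes that passed its low-count filter, with the Benjamini-Hochberg adjusted p given as FDR. A gene was called at an FDR under 0.05 with no limit on the fold change. The 8 markers of CD4+ T cells were present in every library and summed to 5230 to 6020 CPM on Day 3 and 7780 to 9140 CPM on Day 5. Markers of B cells summed to 5.19 to 10.5 CPM, those of stroma to at most 1.11 CPM and those of erythroid cells to at most 1.09 CPM, and of the pair of CD8 genes Cd8a reached at most 1.70 CPM and Cd8b1 lay between 56.3 and 84.2 CPM. Lung epithelial markers reached 20.7 CPM. Endothelial ones summed to 83.2 to 152 CPM, with Pecam1 alone at 83.2 to 152 CPM and Tek at 0 throughout. Myeloid and dendritic markers summed to 26.6 to 91.8 CPM. Among them Cd74 had 13.9 to 43.8 CPM, Lyz2 2.93 to 28.3, Csf1r 0.849 to 10.2 and Itgam 1.80 to 7.76. Fcer1g, H2-Aa, Cd14 and Adgre1 reached at most 3.15 CPM, and Itgax was at 0 in the 6 libraries of Day 3.

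Of the 10 members, 8 were tested. Lifr, the receptor chain for LIF, had 0 to 5 counts per library and Osmr, the chain specific for OSM, had 0 to 2, and neither passed the filter. Osmr was at 0 in all 3 Il6-/- Day 3 libraries, where the limit for counting error alone is 3 counts, equal to 0.135 to 0.150 CPM in these libraries. Differences in these chains were not detectable at this depth.

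The tested members lie on 6 chromosomes of GRCm39 (GENCODE vM39 gene models). Il6ra is on the reverse strand at chr3:89771366-89820719, Il6st on the forward strand at chr13:112600604-112646620 and Il27ra on the reverse strand at chr8:84756916-84769253. Il11ra1 is on the forward strand at chr4:41699989-41769485. Of the kinases, Jak1 is on the reverse strand at chr4:101008838-101122487, Jak2 on the forward strand at chr19:29228677-29290505, Jak3 on the forward strand at chr8:72123007-72143225 and Tyk2 on the reverse strand at chr9:21015363-21042689. Reads were counted without regard to strand. Of the exon bases of Jak1, 18.0% are shared with Raver2, and of those of Jak3, 21.5% with Insl3 or B3gnt3, so reads there cannot be told apart. Reads that HTSeq found on more than a single gene form a separate ambiguous class, 1.96% to 2.28% per library. They are in no gene's count. Il27ra shares 34 bases with Palm3 and Il11ra1 19 bases with Ccl27a. Il11ra1 has near-identical copies in the mouse genome (Il11ra2, Gm13305 and Gm13306), all listed at 0 counts in every library, and its values are uncertain for that reason.

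Promoters of 9 members were in the RefSeq table (all but Il27ra), as 11 windows of the 250 bases before a transcription start (placed on GRCm39), and their letters were searched on both strands for motifs. The stretches printed are those of 3 members that lie outside the gene's own annotated exons. They are shown for the tested members with a run of at least 100 such bases, which were Il6st, Jak1 and Tyk2. Capitals mark GC boxes (GGGCGG, or CCGCCC on the opposite strand) and CCAAT boxes (CCAAT, or ATTGG on the opposite strand). The Il6st stretch covers the whole window, that of Jak1 runs from 250 to 68 bases before the start and that of Tyk2 from 250 to 119 bases before it.
Il6st promoter, chr13:112600354-112600603, forward strand: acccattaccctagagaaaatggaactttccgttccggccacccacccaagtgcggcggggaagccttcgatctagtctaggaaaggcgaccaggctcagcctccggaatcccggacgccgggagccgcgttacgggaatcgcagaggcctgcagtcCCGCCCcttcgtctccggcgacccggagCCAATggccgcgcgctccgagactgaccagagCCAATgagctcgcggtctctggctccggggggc
Jak1 promoter, chr4:101122488-101122670, reverse strand: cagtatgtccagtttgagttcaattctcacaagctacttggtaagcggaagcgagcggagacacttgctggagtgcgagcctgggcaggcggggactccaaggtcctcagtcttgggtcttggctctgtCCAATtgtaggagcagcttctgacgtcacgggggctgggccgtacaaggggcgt
Tyk2 promoter, chr9:21042690-21042821, reverse strand: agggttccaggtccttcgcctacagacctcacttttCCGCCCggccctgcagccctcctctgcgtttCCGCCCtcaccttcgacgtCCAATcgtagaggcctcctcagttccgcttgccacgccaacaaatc

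The Il6st stretch holds 1 GC box and 2 CCAAT boxes, at 33 and 65 bases before the start. The Jak1 stretch holds 1 CCAAT box at 121 bases before the start, and a GC box of this promoter, at 49 bases before it, lies in the part not printed. The Tyk2 stretch holds 2 GC boxes and 1 CCAAT box, and a second CCAAT box lies in the part not printed. A GC box was present in 8 of the 11 member windows and in 32.7% of 32851 mouse promoter windows of the same length, and a CCAAT box in 5 of the 11 and 33.8% of all. The STAT motif TTCNNNGAA was in none of the 11 windows and in 7.02% of all windows, and a TATA motif (TATAAA) in none of the 11 and 12.4% of all. These are matches of letters within 250 bases and do not show binding.

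The level of a chain or kinase relative to another is given as CPM per kb of the gene's canonical transcript. On Day 3 in WT, Jak1 was the most abundant member at 115.5 ± 4.12 CPM per kb (SD, n = 3), followed by Il27ra, the IL-27-specific receptor chain, at 62.3 ± 3.82 and Jak3 at 45.9 ± 1.03. Tyk2 had 23.5 ± 0.82, Il6st 20.6 ± 0.82, Il6ra 10.6 ± 0.82, Jak2 7.31 ± 0.09 and Il11ra1 0.52 ± 0.33 CPM per kb. The 3 libraries of each of these members lay apart from those of the next one in WT and in Il6-/- on Day 3, and the order was the same in both genotypes. On Day 5, Il6st stood above Tyk2 in both genotypes (42.7 ± 5.69 against 25.6 ± 1.77 CPM per kb in WT), although their libraries overlapped in Il6-/-. Il6ra and Jak2 did not lie apart on Day 5 in either genotype, nor did Jak1 and Il27ra, or Jak3 and Il6st, in Il6-/-. With the length of all annotated exons in place of the canonical transcript, the order on Day 3 in WT was the same, whereas on Day 5 in WT Tyk2 stood below Il6ra and Jak2 (14.4 against 20.2 and 15.9 CPM per kb).

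**Figure D1:**
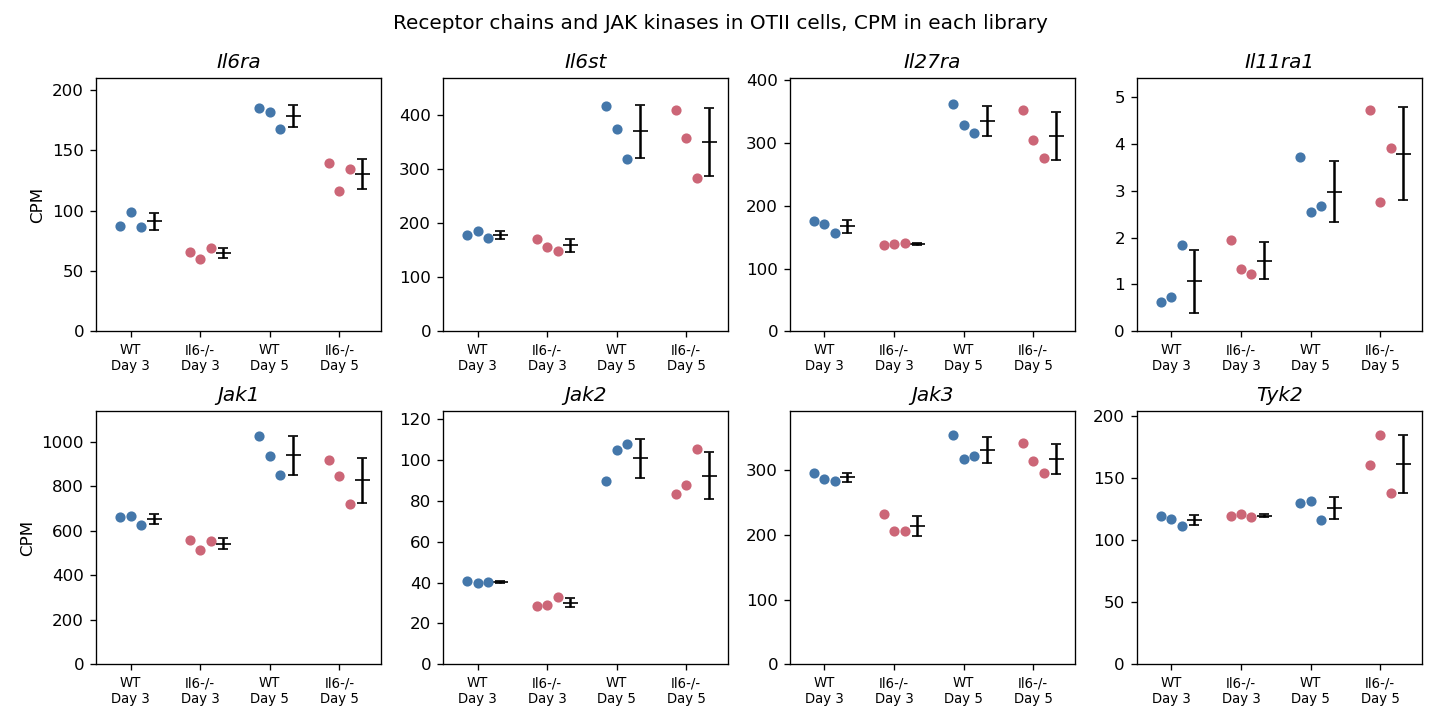
CPM of the 8 tested members in each of the 12 libraries (points), with the mean and SD of each group beside them (n = 3). Il6ra is the member whose 4 groups are all apart, from 60.3 to 68.8 CPM in Il6-/- Day 3 up to 168 to 185 CPM in WT Day 5, and Tyk2 is highest in Il6-/- Day 5 (138 to 185 CPM).

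The first question was whether OTII cells primed without recipient IL-6 carried the IL-6 receptor chains and kinases at the same level on Day 3. Transcripts of 3 of the 8 tested members, Il6ra, Jak2 and Jak3, were lower in OTII cells from Il6-/- recipients at an FDR under 0.05, and none was higher. Among all genes tested, 13.7% were called on Day 3, 6.19% lower and 7.52% higher. The differences lay between 1.33-fold and 1.41-fold, and none reached 2-fold, beside 2.74% of all genes. The median log2 fold change (log2FC, Il6-/- relative to WT) was −0.27 over the 8 members and 0.01 over all genes.

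Il6ra, the IL-6-binding chain, had 87.7, 99.3 and 86.6 CPM in the WT Day 3 libraries and 65.4, 60.3 and 68.8 CPM in those from Il6-/-. All 3 Il6-/- libraries were below all 3 WT libraries. The log2FC was −0.49 (SE 0.09, FDR = 0.00224, edgeR), a level 1.41-fold lower. In bulk RNA, fewer cells with the transcript and less transcript per cell cannot be told apart. The summed CD4+ T-cell markers were also lower in Il6-/- on Day 3, at 5230 to 5390 CPM against 5440 to 6020 CPM in WT, and those of myeloid and dendritic cells were higher, at 52.7 to 56.4 CPM against 26.6 to 42.2 CPM. The endothelial list, nearly all of it Pecam1, was lower in Il6-/-, at 83.2 to 90.0 CPM against 114 to 119 CPM. The part of these lists in the differences between genotypes was not tested.

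Jak3, the kinase of the common γ chain, had 296, 286 and 283 CPM in WT and 231, 205 and 205 CPM in Il6-/- on Day 3. The groups did not overlap, and the log2FC was −0.43 (SE 0.08, FDR = 0.00213, edgeR). Jak2 had 40.7, 39.7 and 40.2 CPM in WT and 28.6, 29.1 and 32.8 CPM in Il6-/-. These groups did not overlap either, with a log2FC of −0.41 (SE 0.10, FDR = 0.0154, edgeR). The Jak2 call was lost without Il6-/- Day 3 replicate 1 (FDR = 0.0739) and without Il6-/- Day 3 replicate 2 (FDR = 0.0666), whereas Il6ra and Jak3 were called under each of the 20 other settings of the fit.

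Il27ra and Jak1 did not pass the threshold. Il27ra had 156 to 176 CPM in WT and 138 to 140 CPM in Il6-/- on Day 3, with a log2FC of −0.27 (SE 0.09, FDR = 0.0582, edgeR). Jak1 had 625 to 667 CPM in WT and 514 to 560 CPM in Il6-/-, with a log2FC of −0.26 (SE 0.09, FDR = 0.0681, edgeR). For both, all 3 Il6-/- libraries lay below all 3 WT libraries, and 8 of the 20 other settings gave an FDR under 0.05. Il6st, which encodes gp130, had 178, 186 and 172 CPM in WT and 172, 157 and 149 CPM in Il6-/- (log2FC −0.17, SE 0.12, FDR = 0.411, edgeR). The 95% interval of this difference, from −0.43 to 0.09, includes no change as well as a fall near that of Jak2. Its Il6-/- libraries lay just below those of WT, the nearest pair at 171.6 and 172 CPM.

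The remaining pair showed no difference past the threshold on Day 3. Tyk2, the kinase that also serves the receptors for type I interferon and IL-12, had 111 to 119 CPM in WT and 118.5 to 121 CPM in Il6-/- (log2FC 0.05, 95% interval −0.16 to 0.25). Il11ra1, the IL-11-binding chain, rested on 15 to 37 counts per library on Day 3, and its log2FC of 0.51 had a 95% interval from −0.38 to 1.41. In all, the 2 genotypes did not overlap for 6 of the 8 members, each lower in Il6-/-, against 36.2% of all genes not overlapping on Day 3 and 15.7% not overlapping and lower. An exact two-sided permutation test of 3 against 3 libraries cannot give a p below 0.1, the value of these 6 members.

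On Day 5, Il6ra was again lower in OTII cells from Il6-/- recipients, and Tyk2 was higher. These 2 were the called members of 8, beside 4.61% of all genes called on Day 5 (3.35% lower and 1.27% higher). Neither reached 2-fold, as 1.14% of all genes did. The summed CD4+ T-cell markers were lower in Il6-/- on Day 5 too, at 7780 to 8570 CPM against 8750 to 9140 CPM, and those of B cells were higher, at 9.79 to 10.5 CPM against 6.92 to 9.73 CPM, and their part was not tested. Il6ra had 185, 182 and 168 CPM in WT and 140, 116 and 135 CPM in Il6-/-. The groups lay apart, with a log2FC of −0.45 (SE 0.09, FDR = 0.00959, edgeR), or 1.37-fold lower. Without Il6-/- Day 5 replicate 2, the library with the lowest value, the FDR was 0.0557. The difference in Il6ra was about as large as on Day 3: the log2FC on Day 3 minus that on Day 5 was −0.04, with a 95% interval from −0.31 to 0.23.

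Tyk2 had 130, 132 and 116 CPM in WT Day 5 and 160, 185 and 138 CPM in Il6-/- Day 5. All 3 Il6-/- libraries were above the WT libraries, by a log2FC of 0.36 (SE 0.09, FDR = 0.0447, edgeR). This call was close to the threshold: of the 12 fits with 1 library omitted, that without Il6-/- Day 5 replicate 3 kept it (FDR = 0.0174), the other 11 gave an FDR up to 0.121, and the 6 Day 5 libraries alone gave 0.153. Il6ra and Tyk2 were the members whose genotypes did not overlap on Day 5, against 19.6% of all genes (8.65% higher and 11.0% lower).

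The other members had no called difference on Day 5. The log2FC was −0.08 for Il6st, −0.11 for Il27ra, −0.18 for Jak1, −0.13 for Jak2 and −0.06 for Jak3, and the libraries of the genotypes overlapped for each of these. Il11ra1 had a log2FC of 0.35 with a 95% interval from −0.46 to 1.16. On Day 5 same-numbered libraries of the genotypes deviated together (r = 0.129 to 0.243), and with replicate number as a block Jak1 was also called lower (log2FC −0.19, FDR = 0.0483, edgeR). This pairing was read from the same data and is not in the labels. The block fit called 1592 of 13570 genes on Day 5, against 626 in the main fit. The Jak1 libraries were at 1026, 936 and 852 CPM in WT and at 919, 844 and 718 CPM in Il6-/-, lower in Il6-/- within each number.

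**Figure D2:**
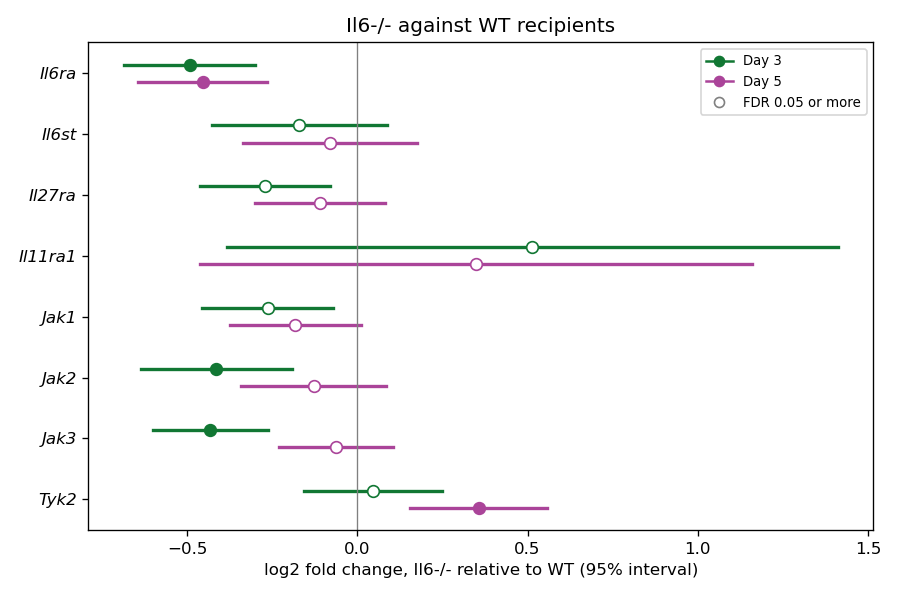
log2FC of Il6-/- relative to WT for the 8 tested members on Day 3 and Day 5, with 95% intervals from edgeR. Filled points had an FDR under 0.05. Il6ra lies at −0.49 and −0.45 on the 2 days, Jak2 and Jak3 are called on Day 3 and Tyk2 on Day 5.

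The difference between the days was tested directly. No member had an interaction of genotype and day at an FDR under 0.05 (edgeR), beside 4.92% of all genes. At an unadjusted p under 0.05 there were 2 members, Jak3 and Tyk2, and 20.5% of all genes. DESeq2 called 1 member, Jak3, and 1132 of 11465 genes. For Jak3 the log2FC on Day 3 minus that on Day 5 was −0.37 (SE 0.11, FDR = 0.0698, edgeR), and it was called with replicate number as a block (FDR = 0.0109), with DESeq2 (adjusted p = 0.0155), without scaling factors (0.026) and without Il6-/- Day 5 replicate 2 (0.0494). For Tyk2 it was −0.31 (SE 0.13, FDR = 0.207, edgeR). A difference between the days was thus not shown for Jak2 or Tyk2, and for Jak3 the call depended on the fit.

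From Day 3 to Day 5 the tested receptor chains and kinases rose in OTII cells of both genotypes, with the exception of Tyk2 in WT. In WT, 7 of the 8 tested members were higher on Day 5 and in Il6-/- all 8 were. Of all genes tested, 56.7% were called between the days in WT (29.5% higher) and 60.5% in Il6-/- (30.4% higher), and 22.2% were higher in both genotypes. The median log2FC, Day 5 relative to Day 3, was 0.98 over the members and 0.09 over all genes in WT, and 1.07 and 0.09 in Il6-/-. In WT 4 members rose at least 2-fold (Il6st, Il27ra, Il11ra1 and Jak2), as did 12.7% of all genes, and in Il6-/- 5 did (those 4 and Il6ra), beside 14.5%. All Day 5 libraries lay above all Day 3 libraries for 7 of the 8 members in WT (33.4% of all genes) and for 8 in Il6-/- (33.1%).

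Among the receptor chains, Il6st rose from 179 ± 7.15 to 370.5 ± 49.4 CPM in WT, a log2FC of 1.05 (SE 0.12, FDR = 3.38e-06, edgeR). In Il6-/- it rose from 159 ± 11.6 to 350.2 ± 62.9 CPM (log2FC 1.14, SE 0.12, FDR = 1.23e-06, edgeR). Il27ra rose from 168 ± 10.3 to 336 ± 23.8 CPM in WT (log2FC 1.00, FDR = 2.94e-07) and from 139 ± 1.21 to 311 ± 38.0 CPM in Il6-/- (log2FC 1.16, FDR = 6.2e-08). For Il6ra the log2FC was 0.97 in WT (FDR = 3.94e-07, edgeR), and 1.01 in Il6-/- (FDR = 2.31e-07). The 3 chains thus rose by similar amounts, near 2-fold, in both genotypes, and their intervals overlapped. Il6ra on Day 5 in Il6-/- was still above WT on Day 3 (116 to 140 against 86.6 to 99.3 CPM), so that the order of its groups was Il6-/- Day 3, WT Day 3, Il6-/- Day 5 and WT Day 5, each apart from the next. Il11ra1 rose from 65 counts over the 3 WT libraries on Day 3 to 179 on Day 5 (log2FC 1.50, SE 0.41, FDR = 0.00577, edgeR) and from 88 to 211 counts in Il6-/- (log2FC 1.33, SE 0.40, FDR = 0.00907, edgeR).

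The kinases differed in how far they rose. Jak2 rose most, from 40.2 ± 0.49 to 101 ± 9.56 CPM in WT (log2FC 1.33, SE 0.10, FDR = 7.95e-08, edgeR) and from 30.1 ± 2.27 to 92.2 ± 11.6 CPM in Il6-/- (log2FC 1.61, SE 0.10, FDR = 1.48e-08, edgeR). For Jak1 the log2FC was 0.53 in WT (SE 0.09, FDR = 0.00016, edgeR), and 0.61 in Il6-/- (SE 0.09, FDR = 3.49e-05). The 95% intervals of Jak1 and Jak2 did not overlap in either genotype. Jak3 had 283 to 296 CPM in WT Day 3 and 316 to 353 CPM in WT Day 5, and 205 to 231 and 295 to 341 CPM in Il6-/-. Its rise was 0.20 on the log2 scale in WT (SE 0.08, FDR = 0.0437) and 0.57 in Il6-/- (SE 0.08, FDR = 1.76e-05). The WT rise was lost in 8 of the 12 fits without 1 library (FDR up to 0.177), all but those without WT Day 5 replicate 2, Il6-/- Day 3 replicate 1, Il6-/- Day 5 replicate 1 and Il6-/- Day 5 replicate 3. It was also lost with RLE scaling (FDR = 0.0886), with DESeq2 (adjusted p = 0.0826) and without a low-count filter (FDR = 0.344). Tyk2 rose in Il6-/- by a log2FC of 0.43 (SE 0.09, FDR = 0.00115), and in WT it had a log2FC of 0.12 (95% interval −0.08 to 0.32, FDR = 0.298), which a gene-length offset moved to 0.25 (FDR = 0.0258). The difference between these rises is the interaction given above, in which neither Jak3 nor Tyk2 was called.

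The share of reads counted on genes was 60.2% to 62.2% on Day 3 and 52.5% to 56.7% on Day 5, and the summed CD4+ T-cell markers rose from at most 6020 CPM on Day 3 to at least 7780 CPM on Day 5. The endothelial list rose from 114 to 119 CPM to 136 to 147 CPM in WT and from 83.2 to 90.0 CPM to 124 to 152 CPM in Il6-/-. In WT the myeloid and dendritic list was at 26.6 to 42.2 CPM on Day 3 and 52.2 to 91.8 CPM on Day 5, and that of lung epithelium at 0.494 to 1.52 CPM and 2.55 to 20.7 CPM. In Il6-/- the myeloid and dendritic list was at 52.7 to 56.4 CPM and 57.3 to 79.8 CPM, and that of B cells at 6.36 to 8.10 CPM and 9.79 to 10.5 CPM. The days overlapped for lung epithelium in Il6-/- and for B cells in WT. The part of these in the rise of the members was not tested. Without scaling factors the median of all genes moved to 0.14 in WT and 0.24 in Il6-/-, and the same numbers of members, 7 and 8, were called.

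**Figure D3:**
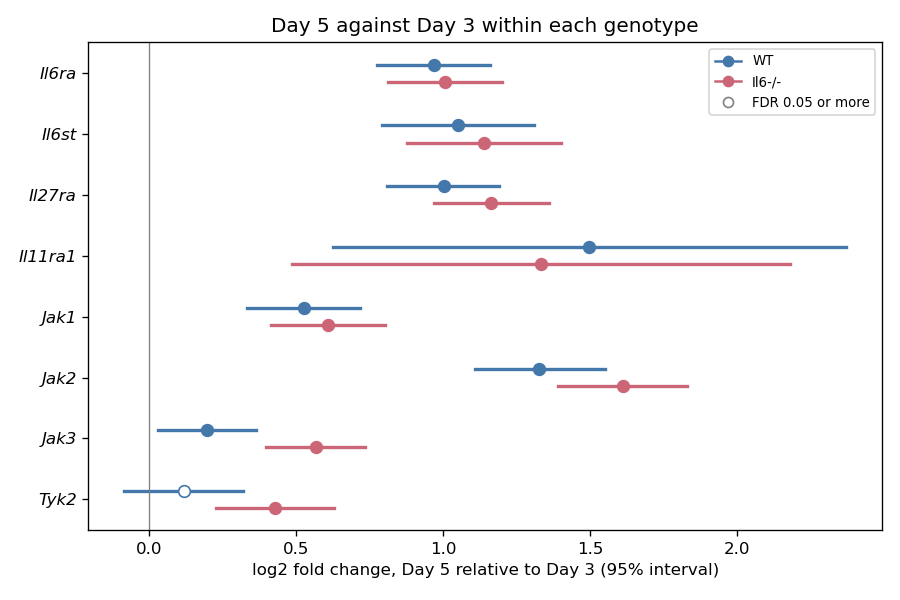
log2FC of Day 5 relative to Day 3 for the 8 tested members in WT and Il6-/-, with 95% intervals from edgeR. Il6ra, Il6st and Il27ra lie near 1.0 in both genotypes (0.97 to 1.16), Jak2 at 1.33 and 1.61, and the open point is Tyk2 in WT (FDR = 0.298).

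The mix of the JAK kinases was compared as the share of each in their summed CPM per kb, a measure that does not depend on the scaling of a library. It does depend on the transcript lengths, here those of the canonical transcripts. Jak1 made up 60.1 ± 0.57% of the sum in WT Day 3 (n = 3), Jak3 23.9 ± 0.46%, Tyk2 12.2 ± 0.09% and Jak2 3.80 ± 0.12%. The Tyk2 share was higher in Il6-/- on both days: 14.6 to 16.0% against 12.2 to 12.3% on Day 3, and 12.3 to 14.8% against 9.39 to 10.2% on Day 5. The 3 libraries of each genotype lay apart on each day, with an exact permutation p of 0.1, the smallest the design allows. A share also moves with the other 3 kinases. On Day 3 the CPM of Tyk2 itself overlapped between the genotypes (log2FC 0.05, FDR = 0.815, edgeR), while the sum of the 4 was lower in Il6-/-. The Jak3 share was 20.3 to 22.3% in Il6-/- against 23.4 to 24.3% in WT on Day 3, and 19.7 to 21.2% against 19.2 to 20.9% on Day 5, where the genotypes overlapped. The Jak2 share went from 3.80 ± 0.12% to 7.02 ± 1.10% between the days in WT and from 3.43 ± 0.28% to 6.90 ± 1.55% in Il6-/-, again with no overlap. The Jak1 share did not differ on Day 3 beyond the spread. On Day 5 it was 61.6 to 64.8% in WT and 57.5 to 61.5% in Il6-/-, the nearest pair at 61.58 and 61.48%. With the length of all annotated exons in place of the canonical transcript, the genotypes overlapped in the Jak1 share on Day 5. The sum itself was 192 ± 5.62 CPM per kb in WT and 160 ± 5.96 in Il6-/- on Day 3, apart, and 263 ± 17.8 and 247 ± 22.5 on Day 5, overlapping (exact permutation p = 0.5).

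**Figure D4:**
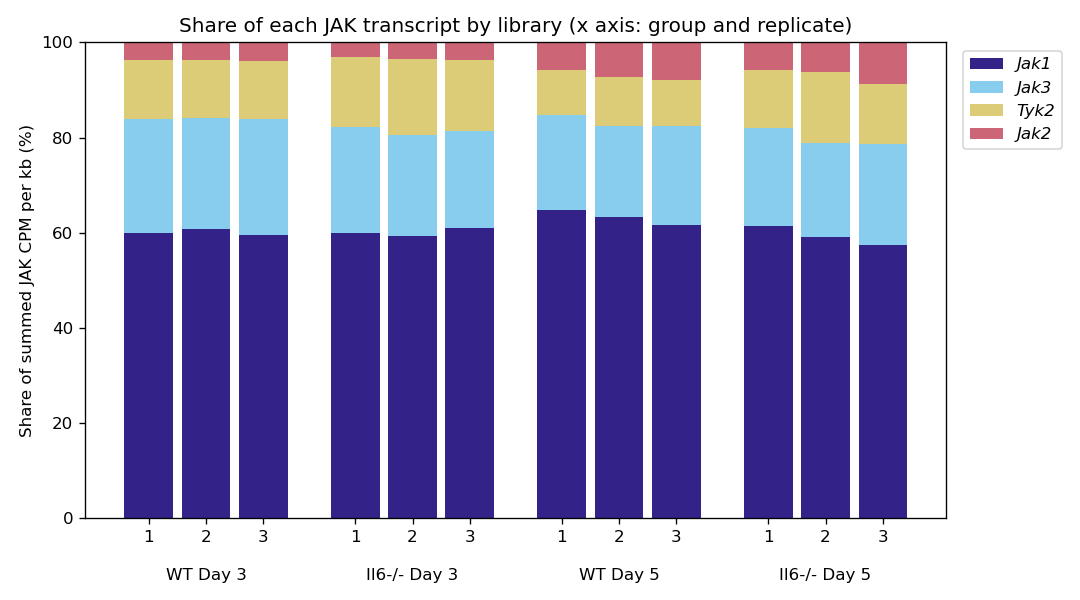
Share of each JAK kinase in the summed CPM per kb of the 4, in each of the 12 libraries (bars, in percent). Jak1 takes 57.5 to 64.8% of every bar, the Tyk2 band is wider in the Il6-/- libraries of each day, and the Jak2 band is wider on Day 5. Bands are shares of the sum, and on Day 3 the CPM of Tyk2 itself overlapped between the genotypes.

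The ratio of Il6st to Il6ra, per kb, was 1.96 ± 0.08 in WT and 2.45 ± 0.26 in Il6-/- on Day 3, with no overlap (exact permutation p = 0.1). On Day 5 it was 2.06 ± 0.18 and 2.69 ± 0.52, and the libraries overlapped (exact permutation p = 0.2). Il27ra relative to Il6ra was higher in Il6-/- without overlap on both days, at 6.90 ± 0.43 against 5.92 ± 0.48 on Day 3 and 7.70 ± 0.97 against 6.04 ± 0.23 on Day 5 (exact permutation p = 0.1 each). The nearest pair on Day 3 was at 6.55 and 6.45. Il27ra itself was not higher in Il6-/- (log2FC −0.27 on Day 3 and −0.11 on Day 5). Between the days in either genotype the libraries overlapped for both ratios.

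Over the 12 libraries, the gene closest in pattern to Il6st among all genes tested was Il27ra (Pearson r = 0.987 of log2 CPM). The next were Inpp4b (r = 0.986) and Plcb2 (r = 0.985). The genes closest to Il6ra were Vipr1 (r = 0.992), Gtf2i (r = 0.987) and Rflnb (r = 0.986), and those closest to Il27ra were Gramd1a, Hexa and Pbxip1 (r = 0.993 each). Scml4, BC147527 and Slc12a7 were closest to Jak1 (r = 0.979 to 0.986). Pik3c2a (r = 0.984), Ly9 (r = 0.979) and Ifnar2 (r = 0.970) were closest to Jak3. The 12 points share the step between the days and the 4 groups, and the correlations are a description of these libraries.

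Other genes of the pathway were taken from lists chosen by function. Of 9 further chains of the gp130 and IL-12 receptor families, 4 were tested, with 1 lower in Il6-/- on Day 3 and 1 higher and 1 lower on Day 5 (median log2FC −0.51 and −0.21, beside 0.01 over all genes on each day). Over all genes, 6.19% were lower and 7.52% higher on Day 3, and 3.35% and 1.27% on Day 5. The chain lower on both days was Il23r, specific for the IL-23 receptor. It had 25 to 91 counts per library in WT and 1 to 5 counts in Il6-/- on Day 3 (log2FC −4.19, SE 0.71, FDR = 0.00131, edgeR), and 4 to 20 counts against 0 to 1 count on Day 5 (FDR = 0.0208). The Day 5 call was lost without WT Day 5 replicate 2 (FDR = 0.0594), Il6-/- Day 5 replicate 2 (FDR = 0.0916) or Il6-/- Day 5 replicate 3 (FDR = 0.0524). Il12rb1, the chain shared by the IL-12 and IL-23 receptors and bound by TYK2, was higher on Day 5, at 62.3 ± 8.26 against 43.9 ± 9.84 CPM (log2FC 0.51, SE 0.14, FDR = 0.0468, edgeR). It was called in 3 of the 12 fits without 1 library (those without WT Day 3 replicate 1, WT Day 5 replicate 2 or Il6-/- Day 5 replicate 1), with an FDR up to 0.196 in the others.

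Of 12 ligand genes, 4 were tested and 1 was called on each day, beside 13.7% of all genes on Day 3 and 4.61% on Day 5. The called gene was Ebi3, the shared subunit of IL-27 and IL-35. It was higher in Il6-/-, at 52.3 ± 4.36 against 25.4 ± 6.04 CPM on Day 3 (log2FC 1.04, SE 0.20, FDR = 0.00311, edgeR) and 47.5 ± 6.51 against 26.7 ± 8.38 CPM on Day 5 (log2FC 0.83, SE 0.20, FDR = 0.029, edgeR). The Day 5 call was lost in 4 of the 12 fits without 1 library, those without WT Day 5 replicate 1 or 2 or Il6-/- Day 5 replicate 2 or 3, with an FDR up to 0.118. Ebi3 shares 51.1% of its exon bases with the noncoding gene Gm16712 on the opposite strand, so reads there cannot be told apart and may be missing from its count. Il6 itself had 0 to 5 counts per library and was not tested. The proteases known to shed IL-6R, Adam10 and Adam17, were not called on either day (log2FC 0.03 and −0.05 on Day 3, 0.27 and 0.15 on Day 5). For Adam10 on Day 5 the 95% interval was 0.09 to 0.45 (FDR = 0.085, edgeR). All its Il6-/- libraries lay above those of WT, as for 8.65% of all genes.

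Of the 7 STAT genes, all tested, Stat2 was called lower on Day 3, at 30.2 ± 0.41 against 44.6 ± 2.35 CPM (log2FC −0.56, SE 0.08, FDR = 0.00049, edgeR), and none was called on Day 5. Over all genes 13.7% were called on Day 3, 6.19% lower, and 4.61% on Day 5. A count of 1 in 7 is near the Day 3 share. Stat3, the main STAT of gp130, stood at 295 ± 0.18 CPM in Il6-/- and 330 ± 10.6 CPM in WT on Day 3 (log2FC −0.16, FDR = 0.125, edgeR), and at 369.8 ± 21.7 and 369 ± 3.46 CPM on Day 5. Stat3, Stat4 and Stat5b were lower on Day 3 at an unadjusted p under 0.05 and missed the threshold after adjustment.

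Of 14 inhibitors and phosphatases of JAK signaling, 2 were higher and 3 lower on Day 3, and 1 was higher and 3 lower on Day 5, with medians of −0.01 and 0.01. Of all genes, 7.52% were higher and 6.19% lower on Day 3, and 1.27% and 3.35% on Day 5. Socs3, the inhibitor that binds gp130 and JAKs, was at 3.21 ± 0.54 CPM in Il6-/- and 16.3 ± 3.36 CPM in WT on Day 3 (log2FC −2.34, FDR = 7.74e-06, edgeR). On Day 5 it was at 12.4 ± 1.96 and 22.5 ± 2.41 CPM (log2FC −0.86, FDR = 0.0122, edgeR), a call lost without WT Day 5 replicate 2 (FDR = 0.0632) or Il6-/- Day 5 replicate 2 (FDR = 0.0683). Cish, an inhibitor of STAT5 signaling, was higher at 52.1 ± 5.38 against 16.0 ± 3.74 CPM on Day 3 (log2FC 1.71, FDR = 2.29e-05, edgeR). On Day 5 the levels were 26.7 ± 5.01 and 8.94 ± 1.31 CPM (log2FC 1.58, FDR = 0.000673, edgeR). Ptpn1, which encodes the phosphatase PTP1B that acts on JAK2 and TYK2, was lower on Day 3, at 261 ± 7.60 against 371 ± 2.31 CPM (log2FC −0.51, FDR = 0.000381, edgeR). Ptprc, encoding the phosphatase CD45, was lower on Day 3 by a log2FC of −0.26 (FDR = 0.0118), a call lost without WT Day 3 replicate 3, Il6-/- Day 3 replicate 1 or Il6-/- Day 3 replicate 2 (FDR up to 0.0601). The second gene higher on Day 3 was Ptpn11, encoding SHP2 (log2FC 0.44, FDR = 0.0293), with overlapping libraries. It is outside the naming rule and was named after its value was seen. On Day 5, Socs1, an inhibitor of JAK kinase activity, was lower at 18.6 ± 1.71 against 38.1 ± 8.68 CPM (log2FC −1.03, FDR = 0.00277, edgeR). Pias2 was lower on Day 5 by a log2FC of −0.67 (FDR = 0.0481) and was called in 3 of the 12 fits without 1 library (those without WT Day 3 replicate 1, WT Day 5 replicate 3 or Il6-/- Day 5 replicate 1), with an FDR up to 0.19 in the others.

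Of 11 other receptor chains of T cells that carry JAKs, all tested, 2 were higher and 2 lower on Day 3, and 2 higher on Day 5 (medians −0.01 and −0.06), against the same shares of all genes. Ifnar2, a chain of the type I interferon receptor that carries JAK1, stood at 80.7 ± 3.85 CPM in Il6-/- and 118 ± 5.87 CPM in WT on Day 3 (log2FC −0.55, FDR = 0.000355, edgeR). Ifngr1, the JAK1-bound chain of the interferon gamma receptor, had a log2FC of −0.32 (FDR = 0.033), called in 7 of the 12 fits without 1 library. It was lost without any WT Day 3 library or without Il6-/- Day 3 replicate 1 or 2, with an FDR up to 0.142. Il7r, which signals through JAK1 and JAK3, was higher on Day 3 at 16.0 ± 2.19 against 10.5 ± 1.76 CPM (log2FC 0.62, FDR = 0.0169, edgeR), and was lost without WT Day 3 replicate 1 or 2 or Il6-/- Day 3 replicate 2 (FDR up to 0.085). Il10ra, the JAK1-bound chain of the IL-10 receptor, was higher on both days, at 16.4 ± 3.09 against 10.7 ± 1.27 CPM on Day 3 (log2FC 0.62, FDR = 0.012, edgeR) and 60.7 ± 5.92 against 38.0 ± 4.71 CPM on Day 5 (log2FC 0.67, FDR = 0.0122, edgeR). Its call was lost without WT Day 3 replicate 1 (0.0533) or Il6-/- Day 3 replicate 3 (0.0643) on Day 3, and without WT Day 5 replicate 1 (0.0711) or Il6-/- Day 5 replicate 2 (0.0503) on Day 5. Il2rb, the JAK1-bound chain of the IL-2 receptor, was higher on Day 5 by a log2FC of 0.28 (FDR = 0.0369), called in 3 of the 12 fits without 1 library (those without WT Day 3 replicate 1, WT Day 5 replicate 3 or Il6-/- Day 5 replicate 1), with an FDR up to 0.155 in the others. Il2rg, which carries JAK3, had log2FC of −0.02 on Day 3 and −0.08 on Day 5, neither called.

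Between the days, the other JAK-bound chains moved mostly upward, as the members did: 8 of the 11 were higher on Day 5 in WT and 9 in Il6-/-, with none lower (median log2FC 0.41 and 0.80, beside 0.09 over all genes in each genotype). Of all genes, 29.5% were higher in WT and 30.4% in Il6-/-, shares against which the counts of the other lists are also to be read. Il10ra was among them, from 10.7 ± 1.27 to 38.0 ± 4.71 CPM in WT, as was Il7r, from 10.5 ± 1.76 to 37.5 ± 2.66 CPM. Of the 7 STAT genes, 3 were higher in WT and 4 in Il6-/-, with none lower. Of the 14 inhibitors and phosphatases, 4 were higher and 1 lower in WT, and 4 were higher and 4 lower in Il6-/-. The 4 tested chains of the gp130 and IL-12 receptor families outside the members did not follow: none was higher and 2, Il12rb1 and Il23r, were lower in WT, and 1 was higher in Il6-/-.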

How the data were processed

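Single-end 50 bp reads were processed by the authors with Trim Galore 0.4.4 for trimming, STAR 2.5.2a for alignment (GRCm39) and HTSeq 0.6.1p1 for unstranded gene counts. Deposited for each library are raw, unscaled counts per gene symbol, and the authors' own fold changes and log2 CPM table were not used. The test was that of edgeR 4.0.16 under R 4.3.3 (filterByExpr, TMM, quasi-likelihood F test, 1 coefficient per group over 12 libraries). Genotypes were compared within each day, as an interaction with day, and days within each genotype. The script was tested on simulated counts. Scaling, filter, DESeq2 1.42.0, a replicate block, a fit of each day by itself, an offset for gene length, a 2-fold limit and each library left out were alternatives. For correlations, log2 CPM had a prior count of 2.

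Same-numbered libraries of the genotypes were compared by the correlation of their deviations from the group means, which was 0.0333, 0.0599 and 0.0325 on Day 3 and 0.243, 0.206 and 0.129 on Day 5. The numbers were taken to pair libraries on Day 5, from the data and not the labels. The members and lists were chosen with earlier results of these data known. The text names all 10 members, up to 4 called genes with the smallest p per pathway list and day, and the 3 genes most alike in pattern to Il6ra, Il6st, Il27ra, Jak1 and Jak3. Gene models came from GENCODE vM39 and promoters from RefSeq, whose table is for another build and whose sequences were matched exactly to GRCm39. The authors' annotation was not used here. The values of 1 gene of the pathway lists are not reported here.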

Additional observations from a re-analysis of the deposited data

Results flagged for a closer look

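In 4 pathway genes the difference between genotypes changed with the day by a test of the interaction (edgeR, FDR over all genes), each being called lower in Il6-/- on Day 3 with a smaller or no fall on Day 5. They were 2 of 14 inhibitors and phosphatases, 1 of 7 STATs and 1 of 11 other receptor chains, beside 4.92% of all genes. No tested gene of the other pathway lists was called. The log2FC on Day 3 minus that on Day 5 was −1.48 for Socs3 (FDR = 0.00807), −0.67 for Stat2 (FDR = 0.00785), −0.44 for Ifnar2 (FDR = 0.0334) and −0.37 for Ptpn1 (FDR = 0.0498). Socs3 and Stat2 were called in all 12 fits that left out 1 library. Ifnar2 was called in 3 of them (those without WT Day 5 replicate 3, Il6-/- Day 5 replicate 2 or Il6-/- Day 5 replicate 3) and Ptpn1 in 2 (those without WT Day 5 replicate 3 or Il6-/- Day 5 replicate 1), with an FDR up to 0.0921 and 0.123. Ptpn1 also missed the threshold with RLE scaling (0.0526), without a low-count filter (0.0587) and with a gene-length offset (0.0619). Stat2 on Day 5 was above WT in all 3 Il6-/- libraries (log2FC 0.11, FDR = 0.52), and below it in all 3 on Day 3 (log2FC −0.56). None of the receptor or kinase members was called in the interaction, and none had libraries entirely apart in opposite directions on the 2 days.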

How the results depend on the processing

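On Day 3, where 3 members were called, 5 were called without scaling factors, without a low-count filter, with DESeq2 and with a replicate block, 6 with the 6 libraries of the day alone, and 0 with a 2-fold limit. The genes called over all were 1861 of 13570 in the main fit, 1791 without scaling factors and 2658 with the block. They were 2062 of 25836 without the filter, 2243 of 13043 with DESeq2 and 2738 of 12289 with the day alone. The members added were Il27ra and Jak1, and in the libraries of the day alone also Il6st. On Day 5, where 2 were called, the libraries of the day alone gave 1 and a 2-fold limit 0. Those libraries alone called 359 of 13016 genes, against 626 of 13570 in the main fit. For the interaction, where 0 were called, no scaling factors, DESeq2 and the replicate block gave 1, Jak3. The same fits called 648 of 13570, 1132 of 11465 and 1564 of 13570 genes, against 668 in the main fit. Between the days, a 2-fold limit gave 4 in WT and 5 in Il6-/-, in place of 7 and 8. In WT, RLE scaling, DESeq2 and no low-count filter gave 6, without Jak3, and a gene-length offset gave 8, with Tyk2. Over the 12 fits without 1 library, the counts ranged from 2 to 5 on Day 3, from 0 to 2 on Day 5 and from 0 to 1 for the interaction, and were 6 to 7 in WT and 8 in Il6-/- between the days. The labels do not say that replicate numbers pair libraries on either day. Apart from the calls above, no member's call changed with a replicate block.

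Over 776 alternative values of the members, 712 kept their direction and their side of the threshold, 26 lost and 23 gained the threshold, and 15 turned in direction, none of them called. The log2FC of Tyk2 on Day 3 was −0.0090 without scaling factors. Over the 12 fits without 1 library, that of Il6st on Day 5 ranged from −0.21 to 0.050, and the interaction from −0.18 to 0.027 for Il6ra, −0.22 to 0.039 for Il6st, −0.17 to 0.0012 for Jak1 and −0.13 to 0.79 for Il11ra1. The cause of these changes was not tested. For the named pathway genes, 395 of 474 alternative values kept their side, 79 lost the threshold and none turned. Il11ra1, with 15 to 89 counts per library, had the widest intervals, and Lifr and Osmr were too low to test. With 3 libraries per group, differences in Il6st, Il11ra1 and Tyk2 on Day 3 smaller than their intervals could not be seen.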
